A study of Homo sapiens with 9 samples.

Results

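Transcript levels of the epidermal growth factor receptor (EGFR), 4 of its ligands and 5 feedback genes of the ERK kinase pathway were followed in irradiated cancer cells in which EZH2 was lowered. The 10 genes were EGFR, the ligands EREG, AREG, HBEGF and TGFA, the phosphatase genes DUSP4, DUSP5 and DUSP6, and the Sprouty genes SPRY2 and SPRY4. They were matched by symbol to the Ensembl identifiers of the deposited table, which held 57905 genes, and all 10 were among the 13252 genes abundant enough to be tested. KYSE180 is a human esophageal squamous cell carcinoma line, and the series title describes it as deficient in KDM6A, a demethylase that removes the histone mark written by EZH2. The 9 libraries fell into 3 groups of 3: cells with the hairpin shEZH2#1, cells with the hairpin shEZH2#3, and cells with the control hairpin shluc, which by its name targets luciferase. All 3 groups had been given 6 Gy of ionizing radiation and came from this 1 line, and no unirradiated group was analysed here. Titles name hairpins, but the genotype given for the EZH2 libraries is knockout and for the control WT. Whether replicates came from separate cultures is not labelled, and if they did not, the p-values reflect technical spread alone.

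EGFR is a receptor tyrosine kinase at the surface of epithelial cells. Its ligands are made as membrane-bound precursors, which proteases of the ADAM family cut free, and a bound receptor passes its signal through adaptors and RAS to the RAF, MEK and ERK kinases. Active ERK raises the transcription of its own inhibitors, among them DUSP phosphatases, which dephosphorylate ERK, and Sprouty proteins, which act between the receptor and RAF, so that the messenger RNAs of such genes are widely read as a sign of pathway output. EGFR is often amplified or highly expressed in esophageal squamous cell carcinoma.

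EREG and AREG are neighbours on chromosome 4, and the sequences upstream of both genes and of EGFR are shown because EREG and AREG had the lowest ligand levels relative to control with shEZH2#3, while EGFR carried the lower call with shEZH2#1. Each sequence is the 250 bases before the RefSeq transcription start on GRCh38.p14, plus strand, written 5′ to 3′. The windows are chr4:74364895-74365144 for EREG, chr4:74444886-74445135 for AREG and chr7:55018767-55019016 for EGFR. Capitals mark matches to the 4 motifs that were searched on both strands: TATAAA (the TATA box), TGACGTCA (the cAMP response element), GGGCGG (the GC box, which reads CCGCCC on the other strand) and TGANTCA (the AP-1 element), none of which overlapped another here.
EREG: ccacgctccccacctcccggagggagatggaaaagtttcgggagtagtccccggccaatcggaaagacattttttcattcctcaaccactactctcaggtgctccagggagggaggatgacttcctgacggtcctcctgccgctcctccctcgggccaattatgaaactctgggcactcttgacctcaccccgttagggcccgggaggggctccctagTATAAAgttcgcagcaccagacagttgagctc
AREG: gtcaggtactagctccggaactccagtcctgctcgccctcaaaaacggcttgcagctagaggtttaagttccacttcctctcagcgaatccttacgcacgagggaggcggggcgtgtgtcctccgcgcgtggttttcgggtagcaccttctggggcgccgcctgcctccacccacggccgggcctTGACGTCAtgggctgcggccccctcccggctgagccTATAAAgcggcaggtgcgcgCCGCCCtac
EGFR: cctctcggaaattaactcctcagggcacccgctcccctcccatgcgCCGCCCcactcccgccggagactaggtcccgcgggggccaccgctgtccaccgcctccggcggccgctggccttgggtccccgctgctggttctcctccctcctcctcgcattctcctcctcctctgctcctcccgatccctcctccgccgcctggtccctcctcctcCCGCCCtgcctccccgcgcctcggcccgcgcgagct
Both ligand windows held a TATA box, 32 to 27 bases before the start in EREG and 29 to 24 bases before it in AREG, a motif found in 10.7% of all 35116 RefSeq windows of this length. The AREG window also held the cAMP response element, 65 to 58 bases before the start, which 1.65% of windows held, and a GC box on the reverse strand 9 to 4 bases before it. The EGFR window held neither of these, but had 2 GC boxes on the reverse strand, at 204 to 199 and 36 to 31 bases before the start. The RefSeq table holds another EGFR start downstream, whose window (chr7:55109589-55109838) has 2 TATA boxes and 2 AP-1 elements and is not printed, since the window shown is the one at the start of the annotated gene. GC boxes were found in 42.6% of windows and the AP-1 element, which is in none of the 3 printed, in 6.57%. The GC content was 58.0% for EREG, 65.2% for AREG and 73.6% for EGFR, against a median of 58.0% over all windows. These matches describe the letters alone.

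Library totals ranged from 14958011 to 21152006 estimated counts, and libraries of 1 group differed by more than counting noise (chi-square per degree of freedom 15.7 to 84.0). Levels are given as CPM, counts scaled to a common library total with the TMM factors of edgeR. EZH2 itself stood at 10.1 ± 2.41 CPM with shEZH2#1, 9.94 ± 0.989 CPM with shEZH2#3 and 19.3 ± 0.890 CPM in shluc (SD, n = 3 each). Its log2 fold change was -0.94 ± 0.18 (SE) with shEZH2#1 (edgeR adjusted p = 0.00163) and -0.96 ± 0.18 with shEZH2#3 (edgeR adjusted p = 0.000433). Libraries differed in how their levels depended on GC content. Relative to each gene's average, the rank correlation of level with transcript GC content was -0.25 to 0.25 with shEZH2#1, 0.37 to 0.64 with shEZH2#3 and -0.69 to -0.39 in shluc, so the 3 groups did not overlap, and the calls and signs that a refit with an offset for GC content and length changed are given with the genes below. Identifiers ENSG00000266658 and ENSG00000272060, which have no symbol, took 15.8 to 22.6% of counts with shEZH2#1, 5.97 to 11.6% with shEZH2#3 and 6.96 to 9.28% in shluc. Of 10 squamous markers, 7 averaged below 1 CPM, including KRT5 and TP63, while KRT17 averaged 1267 CPM, SFN 638 CPM and PERP 63.3 CPM over all libraries. Of 5 simple-epithelium markers, 2 averaged at least 10 CPM, the keratins KRT8 and KRT18 at 5627 and 3887 CPM. The others, KRT19, EPCAM and CDH1, averaged between 1 and 10 CPM. The squamous label thus rested on few of its markers, and most of the simple-epithelium list was low as well. The leukocyte genes PTPRC, CD3E and MS4A1 were at 0 in every library, as were the fibroblast gene COL1A2 and the endothelial gene KDR. Summed levels of the 7 fibroblast markers were 53.9 to 62.4 CPM with shEZH2#1, 79.6 to 118 CPM with shEZH2#3 and 59.5 to 68.3 CPM in shluc. For the 4 matched endothelial markers, of which CDH5 gave most, the sums were 7.97 to 8.29, 28.4 to 32.7 and 13.8 to 19.8 CPM in the same order, and for the 7 leukocyte markers 16.4 to 20.3, 25.4 to 30.7 and 18.7 to 22.2 CPM. DUSP5, DUSP6 and EGR1, described below, were also lowest with shEZH2#1 and highest with shEZH2#3, and the part of these markers in that pattern was not tested.

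EGFR fell with shEZH2#1, with 69.5, 54.2 and 63.9 CPM in the 3 libraries, against 95.7, 138 and 87.9 CPM in shluc. The shEZH2#3 libraries held 80.3, 85.3 and 94.0 CPM, between those of the other groups and overlapping shluc. All 3 shEZH2#1 libraries lay below all 3 shluc libraries, which 18.9% of tested genes showed, and shluc replicate 2 was the highest of the 9. EGFR changed by -0.78 ± 0.17 on the log2 scale with shEZH2#1 (edgeR adjusted p = 0.00393), which left 58.3% of the shluc level, and passed under all 21 alternative settings. With the GC and length offset the fold change was -0.46 ± 0.10 (edgeR adjusted p = 0.00475). With shEZH2#3 it was -0.31 ± 0.17 (edgeR adjusted p = 0.141, 95% interval -0.66 to 0.04), and 0.04 ± 0.09 with the offset (edgeR adjusted p = 0.780), which turns its sign. It was called lower with shEZH2#3 without shluc replicate 3 (log2 fold change -0.44, edgeR adjusted p = 0.0474) and under upper quartile scaling (-0.49, edgeR adjusted p = 0.0301), under which the median log2 fold change of all tested genes was -0.18, against -0.01 with TMM. EGFR differed between the hairpins, at -0.47 ± 0.17 for shEZH2#1 relative to shEZH2#3 (edgeR adjusted p = 0.0497), a call that 10 of 21 alternatives did not keep. EGFR (ENSG00000146648) lies on chromosome 7 from 55019021 to 55211628 on GRCh38, and its antisense neighbour EGFR-AS1 had at most 5 counts in a library. These are bulk libraries, in which fewer cells of a type and less RNA per cell cannot be told apart.

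**Figure D1:**
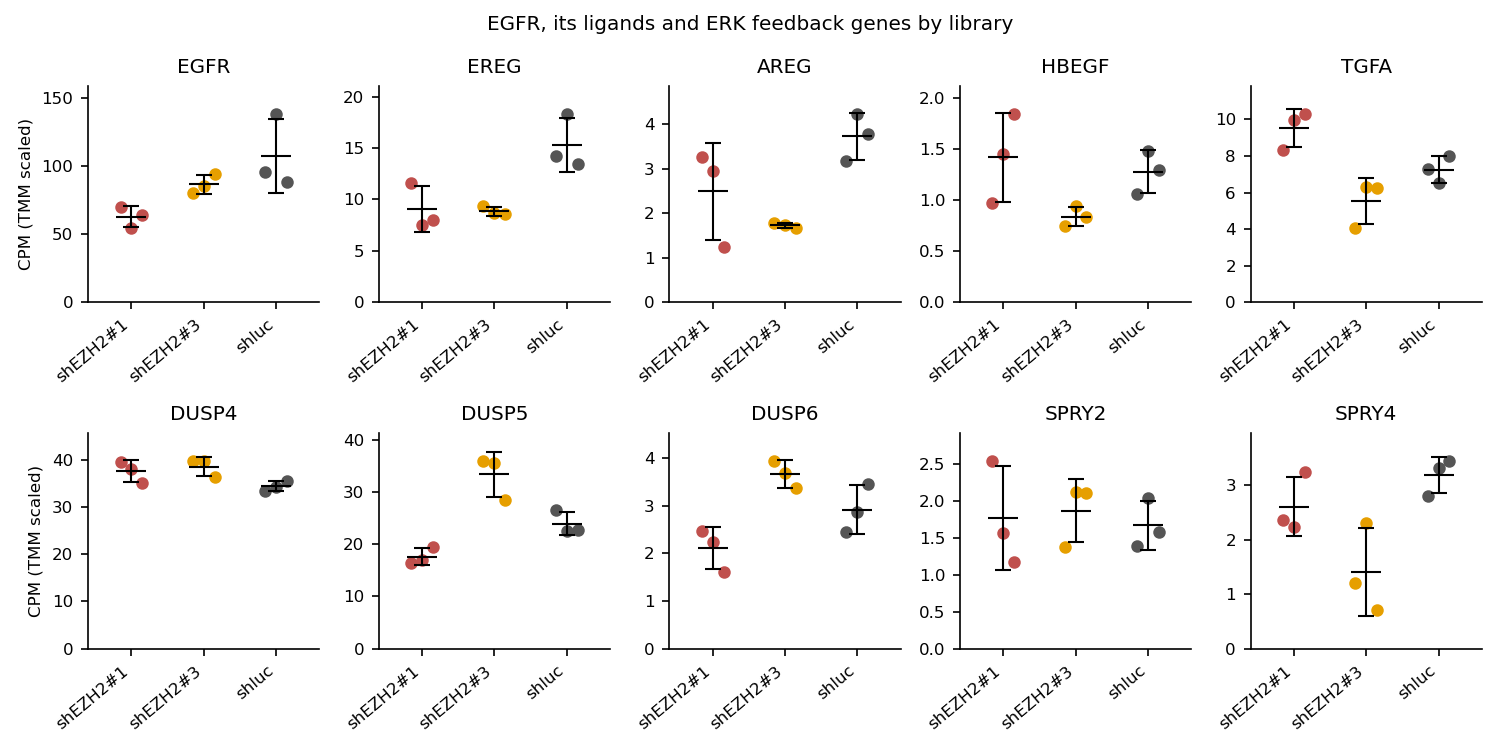
Level of each of the 10 genes in CPM (TMM scaled, linear axis from 0) in every library, by group; points are libraries, horizontal bars are group means and error bars are SD (n = 3). EREG lay below shluc in all 6 knockdown libraries, and DUSP5 lay below shluc with shEZH2#1 and above it with shEZH2#3.

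Of the 4 ligands, EREG fell with both hairpins and AREG fell with shEZH2#3, while HBEGF and TGFA passed in neither comparison with shluc. EREG (epiregulin, which binds EGFR and ERBB4) stood at 11.6, 7.55 and 8.01 CPM with shEZH2#1, at 9.32, 8.67 and 8.56 CPM with shEZH2#3, and at 14.2, 18.3 and 13.4 CPM in shluc. All 6 knockdown libraries were below all 3 shluc libraries, which 9.54% of tested genes showed. The log2 fold change was -0.76 ± 0.19 with shEZH2#1 (edgeR adjusted p = 0.00949) and -0.79 ± 0.19 with shEZH2#3 (edgeR adjusted p = 0.00290), and 59.2% and 57.8% of the shluc level were left. The hairpins differed by 0.04 ± 0.20 (95% interval -0.37 to 0.44, edgeR adjusted p = 0.917). The shEZH2#1 call was lost without shEZH2#1 replicate 2 (edgeR adjusted p = 0.0693) or replicate 3 (edgeR adjusted p = 0.0633). With the GC and length offset EREG had -0.42 ± 0.14 with shEZH2#1 (edgeR adjusted p = 0.0446) and -0.16 ± 0.13 with shEZH2#3, where the call was lost (edgeR adjusted p = 0.419). With replicate number also in that fit, neither EREG call held (edgeR adjusted p = 0.0656 with shEZH2#1 and 0.464 with shEZH2#3). Its longest transcript has a GC content of 36.1%, the lowest of the 10 genes.

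AREG (amphiregulin, an EGFR ligand) was the ligand with the lowest fold change with shEZH2#3. Its levels were 3.27, 2.96 and 1.25 CPM with shEZH2#1, 1.77, 1.75 and 1.66 CPM with shEZH2#3 and 3.18, 4.23 and 3.79 CPM in shluc. The shEZH2#3 libraries lay below all shluc libraries and within 0.116 CPM of each other, whereas shEZH2#1 replicate 3 stood apart from the other libraries of its group and shEZH2#1 replicate 1 overlapped shluc. The log2 fold change was -1.11 ± 0.31 with shEZH2#3 (edgeR adjusted p = 0.00828), which left 46.3% of the shluc level, and -0.82 ± 0.28 with the offset (edgeR adjusted p = 0.0493). With the offset and replicate number both in the fit, that call was lost (-0.80, edgeR adjusted p = 0.0507). With shEZH2#1 it was -0.57 ± 0.31 (edgeR adjusted p = 0.204, 95% interval -1.21 to 0.07). The hairpins differed by 0.54 ± 0.33 (edgeR adjusted p = 0.237), and by 0.85 without shEZH2#1 replicate 3 (edgeR adjusted p = 0.0477). AREG rested on 17 to 106 counts a library. An identifier of a former AREG copy, ENSG00000205595, had at most 1.03 counts. EREG ends 56382 bases before AREG starts on the same strand, with 1 annotated gene between them.

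TGFA (transforming growth factor alpha) had changes of opposite sign with the 2 hairpins, neither of which passed. It stood at 8.35, 9.96 and 10.3 CPM with shEZH2#1, at 4.06, 6.30 and 6.24 CPM with shEZH2#3 and at 7.28, 6.50 and 8.00 CPM in shluc. The shEZH2#1 libraries lay above and the shEZH2#3 libraries below all shluc libraries, by as little as 0.346 CPM and 0.202 CPM. TGFA had a log2 fold change of 0.39 ± 0.20 with shEZH2#1 (edgeR adjusted p = 0.179) and -0.39 ± 0.20 with shEZH2#3 (edgeR adjusted p = 0.124). Between the hairpins TGFA was higher with shEZH2#1, by 0.78 ± 0.21 (edgeR adjusted p = 0.00883), and all 21 alternatives kept that call. With the offset it was called higher with shEZH2#1 (0.67 ± 0.20, edgeR adjusted p = 0.0306) and had -0.03 ± 0.20 with shEZH2#3. Upper quartile scaling called it lower with shEZH2#3 (-0.56, edgeR adjusted p = 0.0307).

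HBEGF (heparin-binding EGF-like growth factor, also a ligand of ERBB4) was the scarcest ligand, with 13 to 37 counts a library. It had 0.968, 1.45 and 1.84 CPM with shEZH2#1, 0.744, 0.935 and 0.829 CPM with shEZH2#3 and 1.06, 1.48 and 1.29 CPM in shluc. The shEZH2#3 libraries lay below all shluc libraries, while shEZH2#1 spanned them. The log2 fold changes were 0.14 ± 0.39 with shEZH2#1 (95% interval -0.68 to 0.96) and -0.61 ± 0.41 with shEZH2#3 (95% interval -1.46 to 0.24), and neither passed (edgeR adjusted p = 0.837 and 0.222). The second interval includes a fall of the size seen for EREG.

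Per kilobase of transcript, the ligand messages summed to 6.78 ± 0.808 CPM per kb with shEZH2#1, 4.94 ± 0.221 CPM per kb with shEZH2#3 and 8.54 ± 0.880 CPM per kb in shluc (SD, n = 3). Every knockdown library summed to less than every shluc library, an order that 9.54% of tested genes showed singly. The make-up of the sum differed as well. EREG and AREG together supplied most of it in shluc, at 38.7 ± 3.56% and 35.1 ± 1.88%, and TGFA supplied 19.9 ± 3.53%. With shEZH2#1 the TGFA share was 33.2 ± 7.31%, against an EREG share of 28.8 ± 5.03% and an AREG share of 28.9 ± 10.2%. With shEZH2#3 the shares were 38.9 ± 3.52% for EREG, 28.2 ± 1.93% for AREG and 25.8 ± 5.04% for TGFA. HBEGF gave 6.24 to 9.07% on average in each group. These sums and shares carry no GC and length offset, and the part of GC dependence in them was not tested. With the offset the log2 fold changes with shEZH2#1 and shEZH2#3 were -0.42 and -0.16 for EREG and -0.52 and -0.82 for AREG. They were 0.25 and -0.61 for HBEGF and 0.67 and -0.03 for TGFA. Of the other ligands of the family, EGF, BTC, EPGN, NRG1, NRG2 and NRG3 were near 0 and did not reach the abundance needed for testing. NRG4, the only other tested ligand of the family, is not counted here as an EGFR ligand and was not part of the sum. It stood at 1.04 ± 0.244 CPM per kb with shEZH2#1, 1.41 ± 0.219 with shEZH2#3 and 1.97 ± 0.160 in shluc, where TGFA had 1.68 ± 0.174. Its log2 fold changes were -0.91 ± 0.33 with shEZH2#1 and -0.48 ± 0.32 with shEZH2#3, and neither passed (edgeR adjusted p = 0.0567 and 0.220). With the offset NRG4 was called lower with shEZH2#1 (-0.84, edgeR adjusted p = 0.0439).

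**Figure D2:**
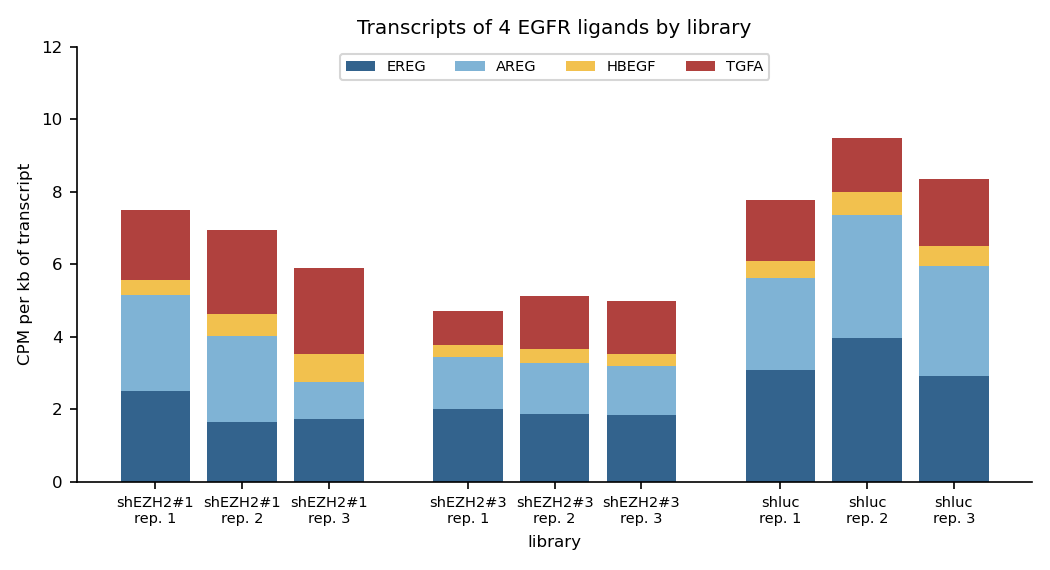
Summed level of the 4 ligand transcripts in each library in CPM per kb of the longest annotated transcript (bars start at 0), split by ligand. The sums were 5.90 to 7.49 with shEZH2#1, 4.70 to 5.14 with shEZH2#3 and 7.77 to 9.50 in shluc, and TGFA took a larger part in the shEZH2#1 bars than in the shluc bars. These are TMM-scaled values without the GC and length offset.

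The feedback genes had no common direction. Of the 3 DUSP and 2 SPRY genes, none was called with shEZH2#1, while with shEZH2#3 DUSP5 rose and SPRY4 fell. DUSP5 (a nuclear phosphatase specific for ERK) had 16.4, 16.9 and 19.5 CPM with shEZH2#1, 36.0, 35.6 and 28.4 CPM with shEZH2#3 and 26.5, 22.5 and 22.8 CPM in shluc. No group overlapped another, with shEZH2#1 lowest and shEZH2#3 highest. Of all tested genes, 18.9% lay wholly below shluc with shEZH2#1 and 26.9% wholly above it with shEZH2#3. The share that did both was not counted. DUSP5 had a log2 fold change of -0.44 ± 0.16 with shEZH2#1, just outside the threshold (edgeR adjusted p = 0.0555), and 0.48 ± 0.16 with shEZH2#3 (edgeR adjusted p = 0.0180). The hairpins differed by -0.92 ± 0.16 (edgeR adjusted p = 0.000305), which all 21 alternatives kept. With the offset the shEZH2#1 change passed (-0.55 ± 0.12, edgeR adjusted p = 0.00626) and the shEZH2#3 change did not (0.12 ± 0.12, edgeR adjusted p = 0.485). The shEZH2#3 call was also lost without shEZH2#3 replicate 1 (edgeR adjusted p = 0.0594) or replicate 2 (edgeR adjusted p = 0.0754) and under upper quartile scaling (edgeR adjusted p = 0.0885).

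DUSP6 (a cytoplasmic ERK phosphatase) followed the same order at lower levels. It had 2.48, 2.23 and 1.62 CPM with shEZH2#1, 3.95, 3.68 and 3.37 CPM with shEZH2#3 and 2.44, 2.87 and 3.45 CPM in shluc. Each hairpin group overlapped shluc in 1 library, and the 2 did not overlap each other, an order whose share among all tested genes was not counted. The log2 fold changes from shluc, -0.46 ± 0.27 with shEZH2#1 and 0.33 ± 0.26 with shEZH2#3, did not pass (edgeR adjusted p = 0.248 and 0.305), nor did they with the offset, at -0.20 and 0.66 (edgeR adjusted p = 0.649 and 0.0518). The difference between hairpins was -0.79 ± 0.27 (edgeR adjusted p = 0.0395), and 12 of 21 alternatives did not keep that call. DUSP6 rested on 22 to 72 counts a library.

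DUSP4 (a nuclear phosphatase of ERK and other MAP kinases) was the steadiest of the genes. It stood at 37.5 ± 2.29 CPM with shEZH2#1, 38.5 ± 1.99 CPM with shEZH2#3 and 34.3 ± 1.05 CPM in shluc (SD, n = 3), and its shEZH2#3 libraries lay above all shluc libraries by as little as 0.733 CPM. Its log2 fold change was 0.13 ± 0.14 with shEZH2#1 (95% interval -0.16 to 0.42) and 0.17 ± 0.14 with shEZH2#3 (95% interval -0.12 to 0.46), and neither passed (edgeR adjusted p = 0.553 and 0.336). With the offset the values were 0.33 ± 0.11 with shEZH2#1 and 0.20 ± 0.11 with shEZH2#3, and neither passed (edgeR adjusted p = 0.0650 and 0.226). Under upper quartile scaling the shEZH2#3 value was -0.0044, on the other side of 0.

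SPRY4 (a Sprouty inhibitor of receptor tyrosine kinase signalling) fell with shEZH2#3. Its levels were 2.36, 2.23 and 3.23 CPM with shEZH2#1, 1.20, 2.31 and 0.718 CPM with shEZH2#3 and 2.81, 3.31 and 3.45 CPM in shluc. The shEZH2#3 libraries lay below all shluc libraries but spread widely, with the lowest, replicate 3, at 13 counts. The fall was -1.19 ± 0.35 on the log2 scale with shEZH2#3 (edgeR adjusted p = 0.0101) and -1.24 ± 0.34 with the offset (edgeR adjusted p = 0.0177), and the call was lost without shEZH2#3 replicate 3 (-0.87, edgeR adjusted p = 0.0536). With shEZH2#1 it was -0.30 ± 0.33 (edgeR adjusted p = 0.568, 95% interval -0.99 to 0.40). The difference between hairpins, 0.89 ± 0.36, did not pass (edgeR adjusted p = 0.0740), but did with the offset (1.09 ± 0.36, edgeR adjusted p = 0.0339).

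SPRY2, another Sprouty gene, averaged 1.76 ± 0.702 CPM with shEZH2#1, 1.86 ± 0.425 CPM with shEZH2#3 and 1.67 ± 0.334 CPM in shluc (SD, n = 3), on 16 to 51 counts a library. Its log2 fold changes were 0.09 ± 0.36 (95% interval -0.66 to 0.83) and 0.16 ± 0.35 (95% interval -0.58 to 0.89), neither of which passed (edgeR adjusted p = 0.892 and 0.735). Its sign turned without shEZH2#1 replicate 1 or shluc replicate 1 in the first comparison and under upper quartile scaling in the second, so no direction is given.

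Counted over the 10 genes, 2 were called lower and 0 higher with shEZH2#1 (edgeR adjusted p below 0.05), where 19.0% of all tested genes were called, 7.89% lower and 11.2% higher. With shEZH2#3, 3 were called lower and 1 higher, where 44.2% of all tested genes were called, 19.8% lower and 24.4% higher. Both shares lay near those of all tested genes. The median log2 fold change of the 10 genes was -0.37 with shEZH2#1 and -0.35 with shEZH2#3, against -0.07 and -0.01 over all tested genes. With the offset it was -0.17 and 0.01, and 3 genes were called lower and 1 higher with shEZH2#1, where 9.89% and 8.23% of tested genes were (18.1% in all), and 2 lower and 0 higher with shEZH2#3, where 11.7% and 12.6% were (24.3% in all). By library, 3 of the 10 lay wholly below and 1 wholly above shluc with shEZH2#1, where 18.9% and 18.3% of tested genes did, and 5 below and 2 above with shEZH2#3, where 26.0% and 26.9% did. EREG was the single gene called in the same direction with both hairpins, where 3.26% of tested genes were called lower and 7.99% higher with both. For the mean of both hairpins against shluc, EGFR, EREG, AREG and SPRY4 were called lower and none higher, where 16.6% and 19.6% of tested genes were (36.3% in all). With the offset 0 of the 10 were called, where 9.61% of tested genes were called lower and 9.02% higher (18.6% in all). Both hairpin comparisons share the 3 shluc libraries. Over all tested genes, 1478 were higher and 1045 lower with shEZH2#1, but 1091 and 1311 with the offset and 1707 and 779 without the 2 abundant unnamed genes. With shEZH2#3, 3237 were higher and 2624 lower, but 2421 and 3720 under upper quartile scaling.

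**Figure D3:**
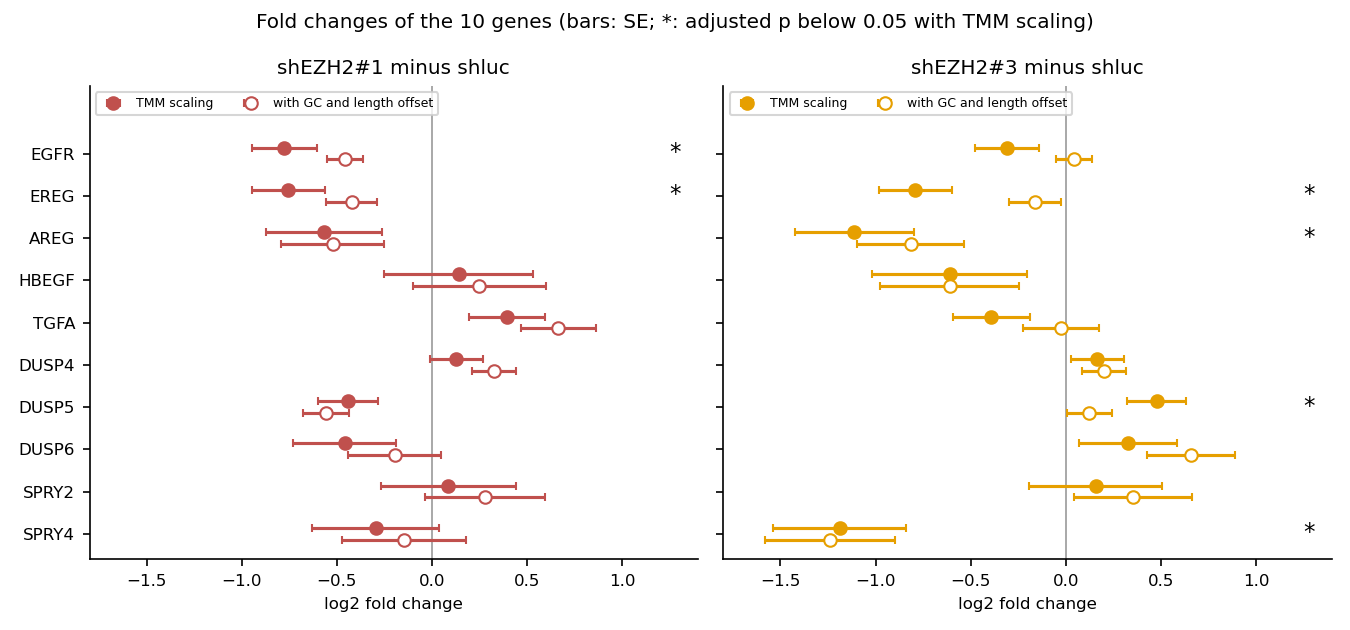
Log2 fold change of each gene with shEZH2#1 (left) and shEZH2#3 (right) relative to shluc, with SE bars; filled points are the TMM-scaled fit, open points the fit with a GC and length offset, and a star marks an edgeR adjusted p below 0.05 in the TMM-scaled fit. EGFR and EREG carry stars with shEZH2#1, and EREG, AREG, DUSP5 and SPRY4 with shEZH2#3, where the open points of EGFR, EREG, AREG, TGFA and DUSP5 lie nearer to 0.

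Compared directly, shEZH2#1 and shEZH2#3 differed in 4 of the 10 genes, with EGFR, DUSP5 and DUSP6 lower and TGFA higher with shEZH2#1. Over all tested genes 25.0% differed, 15.5% lower and 9.46% higher with shEZH2#1. With the offset 5 of the 10 differed, SPRY4 being added, where 28.2% of all tested genes did, 15.0% lower and 13.2% higher. Under upper quartile scaling 2207 genes were higher and 1404 lower with shEZH2#1, against 1254 and 2057 with TMM, and TGFA and DUSP5 kept their direction and call under both. EZH2 differed between the hairpins by 0.02 ± 0.19 (95% interval -0.37 to 0.41, edgeR adjusted p = 0.943).

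Ordered by level per kilobase in shluc, EGFR (10.9 ± 2.73 CPM per kb) and DUSP5 (9.36 ± 0.869) led and did not differ beyond their spread, followed by DUSP4 (6.20 ± 0.190). EREG (3.31 ± 0.569) and AREG (3.01 ± 0.424) overlapped, and TGFA (1.68 ± 0.174) came next. DUSP6 (0.664 ± 0.115), SPRY4 (0.646 ± 0.0681), SPRY2 (0.615 ± 0.123) and HBEGF (0.535 ± 0.0874) could not be told apart by their SDs. The order changed at the top with the hairpins. With shEZH2#1, DUSP5 (6.89 ± 0.662 CPM per kb), DUSP4 (6.78 ± 0.413) and EGFR (6.37 ± 0.787) were level within their SDs, and TGFA (2.21 ± 0.241) stood beside AREG (2.01 ± 0.876) and EREG (1.96 ± 0.482). With shEZH2#3, DUSP5 (13.0 ± 1.66 CPM per kb) stood above EGFR (8.81 ± 0.709) and DUSP4 (6.96 ± 0.359). The levels in this order carry no GC and length offset, and the part of GC dependence in it was not tested. With the offset the log2 fold changes with shEZH2#3 were 0.12 for DUSP5 and 0.04 for EGFR (edgeR adjusted p = 0.485 and 0.780). With shEZH2#1 they were -0.55 and -0.46 (edgeR adjusted p = 0.00626 and 0.00475).

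Across the 9 libraries, log2 levels of EREG and AREG had a Pearson correlation of 0.78 and those of EREG and EGFR one of 0.77. TGFA ran opposite to DUSP5 (-0.84) and DUSP6 (-0.82), which ran together (0.74). The libraries share group, depth and GC dependence, so these values are descriptions. Among 8219 genes averaging at least 5 CPM, those most like EGFR were GLIS3 (0.99), MARCHF6 (0.98) and USP54 (0.97), those most like EREG were KDSR (0.98), AP3M1 (0.97) and PRPF4 (0.96), and those most like DUSP6 were FAM162A (0.97), MFF (0.95) and MAPKAPK5-AS1 (0.95), all as Pearson correlations over the 9 libraries.

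Around these genes, 94 further genes of the pathway were listed by role, of which 81 were tested. With shEZH2#1, 8 were called higher and 15 lower, and with shEZH2#3, 22 higher and 15 lower, with 5 higher and 5 lower under both. As shares of the tested list these were 9.88% higher and 18.5% lower with shEZH2#1, against 11.2% and 7.89% of all tested genes. With shEZH2#3 they were 27.2% higher and 18.5% lower, against 24.4% and 19.8%. The list's median log2 fold change was -0.24 with shEZH2#1 and -0.04 with shEZH2#3. With the offset 4 were higher and 15 lower with shEZH2#1, where 8.23% and 9.89% of all tested genes were, and 10 higher and 11 lower with shEZH2#3, where 12.6% and 11.7% were.

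The partner receptors ERBB2 and ERBB3, which pair with EGFR, rose with shEZH2#3. ERBB2 stood at 86.6 ± 9.70 CPM with shEZH2#1, 138 ± 13.6 CPM with shEZH2#3 and 74.1 ± 10.5 CPM in shluc, with log2 fold changes of 0.23 ± 0.15 (edgeR adjusted p = 0.322) and 0.90 ± 0.15 (edgeR adjusted p = 0.000205, or 0.41 and 0.00378 with the offset). ERBB3 had -0.18 ± 0.16 with shEZH2#1 (edgeR adjusted p = 0.457) and 0.67 ± 0.16 with shEZH2#3 (edgeR adjusted p = 0.00252). Both were lower with shEZH2#1 than with shEZH2#3, by -0.67 ± 0.15 and -0.85 ± 0.16 (edgeR adjusted p = 0.00340 and 0.000699), and with the offset these differences still passed. ERBB4 did not reach the abundance needed for testing.

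Of 9 genes of ligand shedding, RHBDF1, which encodes an iRhom that carries the protease ADAM17 through the cell, rose with both hairpins (0.75 ± 0.16, edgeR adjusted p = 0.00317, and 0.94 ± 0.16, edgeR adjusted p = 0.000185). It was the only one of the 10 pathway genes called in the same direction with both hairpins that kept both calls with the offset (edgeR adjusted p = 0.0187 and 0.0406). The protease ADAM10 fell with both (-0.52 ± 0.18, edgeR adjusted p = 0.0497, and -0.91 ± 0.18, edgeR adjusted p = 0.000726), and neither call held with the offset (edgeR adjusted p = 0.458 and 0.191). The other calls of this role were ADAM12, higher with shEZH2#1 at under 1 CPM in every library, RHBDF2, ADAM15 and FRMD8, higher with shEZH2#3, and ADAM9, lower with shEZH2#3. With the offset ADAM12 and ADAM15 kept these calls and RHBDF2, FRMD8 and ADAM9 did not (edgeR adjusted p = 0.0620, 0.725 and 0.231). RHBDF2 and ADAM15 also differed between the hairpins, RHBDF2 not with the offset (edgeR adjusted p = 0.136). ADAM17 was not called with either.

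Of 11 tested genes listed as acting on receptor activity or turnover, STUB1, which encodes a ubiquitin ligase, rose with both hairpins (0.76 ± 0.18, edgeR adjusted p = 0.00679, and 0.47 ± 0.18, edgeR adjusted p = 0.0423). With the offset neither STUB1 call held and the shEZH2#3 sign turned (0.20 and -0.23, edgeR adjusted p = 0.117 and 0.0577). CBL, PTPN1 and PTPRJ fell with shEZH2#1, and CBLB and LRIG3 with shEZH2#3. Of these 5 calls the offset kept that of PTPN1 (edgeR adjusted p = 0.0282). With the offset 0 of the 11 were called higher and 1 lower with shEZH2#1, where 8.23% and 9.89% of all tested genes were. With shEZH2#3, 1 was higher and 0 lower, where 12.6% and 11.7% were. Among 9 adaptor genes PTPN11, which encodes the phosphatase SHP2, fell with both (-0.57 ± 0.18, edgeR adjusted p = 0.0293, and -0.96 ± 0.18, edgeR adjusted p = 0.000392), the second of which held with the offset (-0.34, edgeR adjusted p = 0.0428) and the first did not (edgeR adjusted p = 0.222). SOS1 and FRS2 fell and SHC1 rose with shEZH2#3, and SHC1 differed between the hairpins (-0.52 ± 0.15, edgeR adjusted p = 0.0156). With the offset none of these 3 changes from shluc passed, at 0.018 for SOS1, -0.40 for FRS2 and 0.13 for SHC1 (edgeR adjusted p = 0.950, 0.384 and 0.294).

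Of 16 genes from RAS to ERK, the GTPase gene NRAS fell with both hairpins. Its log2 fold changes were -0.54 ± 0.16 with shEZH2#1 (edgeR adjusted p = 0.0261) and -0.91 ± 0.17 with shEZH2#3 (edgeR adjusted p = 0.000338), neither of which passed with the offset. HRAS rose with shEZH2#1 (0.99 ± 0.17, edgeR adjusted p = 0.000823, or 0.38 and 0.00655 with the offset) and had 0.41 ± 0.17 with shEZH2#3 (edgeR adjusted p = 0.0582), which the offset turned to -0.34 (edgeR adjusted p = 0.0101). PEBP1 fell with shEZH2#1, also with the offset. ARAF, MAP2K2 and MAPK3 rose under shEZH2#3, whereas BRAF and NF1 fell. With the offset none of these 5 calls held, at 0.086 for ARAF, -0.019 for MAP2K2, 0.13 for MAPK3, -0.22 for BRAF and -0.25 for NF1 (edgeR adjusted p = 0.506, 0.886, 0.224, 0.403 and 0.399), and the sign of MAP2K2 turned.

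Among 9 other feedback genes DUSP9, a cytoplasmic ERK phosphatase gene, rose with both hairpins (0.66 ± 0.17, edgeR adjusted p = 0.0113, and 0.92 ± 0.17, edgeR adjusted p = 0.000428), but with the offset neither call held (0.18 and 0.24, edgeR adjusted p = 0.170 and 0.0548). DUSP1, which encodes a nuclear MAP kinase phosphatase, had 105 ± 8.87 CPM with shEZH2#1, 251 ± 15.8 CPM with shEZH2#3 and 184 ± 13.2 CPM in shluc. Like DUSP5 it was lowest with shEZH2#1 and highest with shEZH2#3, and it was called in both directions, at -0.81 ± 0.14 (edgeR adjusted p = 0.000918) and 0.44 ± 0.14 (edgeR adjusted p = 0.0176), as 0.838% of tested genes were. With the offset its rise with shEZH2#3 was 0.12 and did not pass (edgeR adjusted p = 0.415). DUSP16 fell with shEZH2#1. With shEZH2#3, DUSP8 was called higher and SPRED2 lower. With the offset SPRED2 kept its call, DUSP16 did not (edgeR adjusted p = 0.315), and DUSP8 lay on the other side of 0 (-0.27, edgeR adjusted p = 0.0981) and was called lower with shEZH2#1 (-0.40, edgeR adjusted p = 0.0257).

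Of 24 tested genes that ERK signalling is known to induce, shEZH2#1 libraries had 3 called higher and 4 lower, and shEZH2#3 libraries 8 higher and 2 lower. As shares these were 12.5% higher and 16.7% lower with shEZH2#1, against 11.2% and 7.89% of all tested genes, and 33.3% higher and 8.33% lower with shEZH2#3, against 24.4% and 19.8%. With the offset 1 was higher and 8 lower with shEZH2#1, where 8.23% and 9.89% of all tested genes were. With shEZH2#3, 4 were higher and 7 lower with the offset, where 12.6% and 11.7% of all tested genes were. The mainly upward split with shEZH2#3 thus did not hold. The immediate early transcription factor EGR1 had 2.12, 2.48 and 2.94 CPM with shEZH2#1, 20.8, 16.8 and 11.5 CPM with shEZH2#3 and 6.54, 8.93 and 6.18 CPM in shluc, so no group overlapped another. Its log2 fold change was -1.53 ± 0.25 with shEZH2#1 (edgeR adjusted p = 0.000455) and 1.18 ± 0.22 with shEZH2#3 (edgeR adjusted p = 0.000368), and both calls held with the offset. Of all tested genes, 18.9% lay wholly below shluc with shEZH2#1 and 26.9% wholly above it with shEZH2#3, and the share that did both was not counted. MYC had -0.47 ± 0.16 with shEZH2#1 (edgeR adjusted p = 0.0502, or 0.0353 with the offset) and rose with shEZH2#3 (0.65 ± 0.16, edgeR adjusted p = 0.00340), a call lost with the offset (edgeR adjusted p = 0.0601). Directly compared, 8 of these genes were lower and 2 higher with shEZH2#1 than with shEZH2#3, or 33.3% and 8.33%, where 15.5% and 9.46% of all tested genes were, and with the offset 7 were lower and 3 higher, where 15.0% and 13.2% were. EGR1 (-2.71 ± 0.25, edgeR adjusted p = 3.34e-07) and MYC (-1.12 ± 0.16, edgeR adjusted p = 6.04e-05) were among the 8, with FOS, IER2, PHLDA1, EPHA2, PLAUR and TRIB1, while MCL1 and SPHK1 were higher. Of these 10 calls the offset ended that of IER2 (edgeR adjusted p = 0.0693). CCND1, the cyclin D1 gene, fell with both hairpins (-0.44 ± 0.15, edgeR adjusted p = 0.0396, and -0.64 ± 0.15, edgeR adjusted p = 0.00216), the second of which held with the offset and the first did not (edgeR adjusted p = 0.110). ARC and KCNN4 rose with both, ARC by 1.25 ± 0.44 (edgeR adjusted p = 0.0488) and 1.31 ± 0.43 (edgeR adjusted p = 0.0193). With the offset neither ARC call held (edgeR adjusted p = 0.251 and 0.353), and KCNN4 kept the shEZH2#3 call alone (edgeR adjusted p = 0.223 with shEZH2#1 and 0.0406 with shEZH2#3). Of the 9 pathway genes named here as called in the same direction with both hairpins, RHBDF1 and STUB1 kept the shEZH2#1 call with each library left out in turn and the other 7 lost it in at least 1 such fit, while all but STUB1 and ARC kept the shEZH2#3 call. Of 9 genes named for a difference between the hairpins, ERBB2, ERBB3, ADAM15, DUSP1, EGR1 and MYC kept that call with each library left out, and RHBDF2, SHC1 and HRAS lost it in at least 1 fit.

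**Figure D4:**
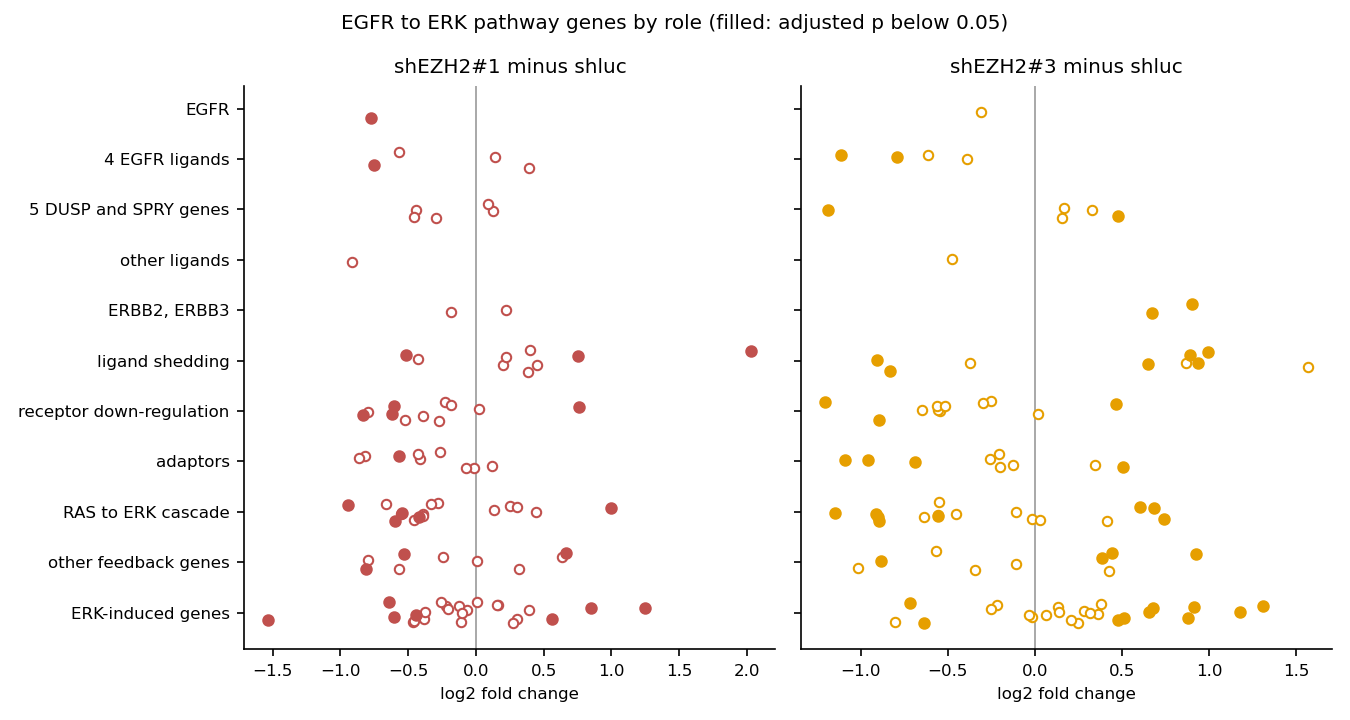
Log2 fold change of the 10 genes and of the 81 other tested pathway genes by role, with shEZH2#1 (left) and shEZH2#3 (right) relative to shluc; each point is a gene, filled where the edgeR adjusted p was below 0.05, and vertical scatter within a row only separates points. In the row of ERK-induced genes 3 filled points lie above 0 and 4 below with shEZH2#1, against 8 above and 2 below with shEZH2#3. Of all tested genes 11.2% were called higher and 7.89% lower with shEZH2#1, and 24.4% and 19.8% with shEZH2#3. These are TMM-scaled values. With the offset the calls were 1 higher and 8 lower with shEZH2#1, where 8.23% and 9.89% of all tested genes were. With shEZH2#3 they were 4 higher and 7 lower with the offset, where 12.6% and 11.7% of all tested genes were.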

How the data were processed

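Polyadenylated RNA was sequenced from dUTP-stranded libraries, per the labels' protocols. The submitters' processing notes name fastp, HISAT2, StringTie and GRCh38 (hg38); no source used here gives the counting step or its strand setting. The values deposited by the authors are estimated counts per Ensembl gene, without normalization, and were rounded to whole numbers. Symbols came from a naming table (51996 identifiers) and from GENCODE 29 (342 more), positions from GENCODE 29 and upstream sequences from RefSeq, whose table held 8 of the 10 genes.

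Counts were tested with the quasi-likelihood test of edgeR 4.0.16 in R 4.3.3 (TMM, filterByExpr, 9 libraries, 1 mean per group), with Benjamini-Hochberg adjustment over 13252 genes and calls below 0.05. The common dispersion was 0.0315. An SE is the unshrunken fold change divided by the square root of F, and 95% intervals use that SE unadjusted. Alternatives were upper quartile or RLE scaling, limma-voom (limma 3.58.1), DESeq2 1.42.0, no filter or at least 1 CPM in 3 libraries, only the groups compared, a replicate block, a GC and length offset (smooth per library, span 0.3, longest GENCODE 29 transcript, 97.7% of tested genes), no abundant unnamed genes, and libraries left out. The fit was tested on simulated counts. Same-numbered libraries did not deviate together (correlations -0.12 to 0.08), so no pairing was used.

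The members and lists were chosen with earlier results of these data known. Named pathway genes were, per role, up to 4 called with both hairpins in 1 direction and up to 2 that differed between hairpins; other names were added after their values were seen, and some genes of the list are not reported here. Counts were low for AREG, HBEGF, DUSP6, SPRY2 and SPRY4, which limits their precision.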

Additional observations from a re-analysis of the deposited data

Results flagged for a closer look

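4 of the 10 genes were picked out because their change from shluc differed between the 2 hairpins, by the test of shEZH2#1 against shEZH2#3 (edgeR). By the same test 25.0% of all tested genes differed. EGFR differed by -0.47 (adjusted p = 0.0497), with all 3 shEZH2#1 libraries below all 3 shEZH2#3 libraries. TGFA differed by 0.78 (adjusted p = 0.00883), with all shEZH2#1 libraries above all shEZH2#3 libraries. DUSP5 differed by -0.92 (adjusted p = 0.000305) and DUSP6 by -0.79 (adjusted p = 0.0395), again without overlap between the hairpins. The same libraries entered the test, so this lack of overlap is not separate support for the differences. The share of all tested genes whose hairpin groups did not overlap was not counted. With the GC and length offset the differences were -0.50, 0.69, -0.68 and -0.85 in the same order (edgeR adjusted p = 0.00149, 0.0208, 0.000923 and 0.0178). EZH2 was lowered to 52.2% of shluc with shEZH2#1 and 51.4% with shEZH2#3. The 2 hairpin groups also differed in GC dependence and in the share of counts from 2 abundant unnamed genes. Without those 2 genes the EGFR and DUSP6 differences were -0.42 and -0.74 and no longer passed (edgeR adjusted p = 0.0756 and 0.0533), while TGFA and DUSP5 passed.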

How the results depend on the processing

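The EGFR call with shEZH2#1 and the TGFA and DUSP5 differences between hairpins held under all 21 alternatives. Genes called with shEZH2#1 numbered 1159 to 3063 with a library left out (1159 and 1344 without shEZH2#1 replicate 3 or 2, 1550 without shluc replicate 2, 2523 in all), and members called 1 to 2. With the GC and length offset, 4 members were called with shEZH2#1, where 2402 of 13252 tested genes were (18.1%). That fit called 2 members with shEZH2#3 (3220 genes, 24.3%) and 0 for the mean of both hairpins (2469 genes, 18.6%). With the replicate block as well, members called were 1 with shEZH2#3 (3004 of 13252 genes) and 0 for the mean (2246 of 13252 genes). For the mean, 1 member was called without shluc replicate 2 and shEZH2#3 replicate 1, where 3292 of 13330 tested genes were. With a library left out, 2649 to 4905 genes and 1 to 4 members were called for the mean (lowest without shluc replicate 2). Between hairpins, 2 members were called without the abundant unnamed genes (3309 of 13404 tested genes) and 2 under the replicate block (2938 of 13252). With a library left out, 1956 to 3941 genes and 2 to 4 members were called between hairpins. Pairing of the samples by replicate number is not labelled and was not used in the main fit. The replicate block alone gave 2208, 5482, 4453 and 2938 genes called for shEZH2#1, shEZH2#3, their mean and their difference.

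For genes named after their values were seen, sign changes with the offset are not listed in full. Among these genes, DUSP8, MAP2K2 and SOS1 turned with shEZH2#3, as given above, and ARAF, MAPK3, BRAF and CBLB with shEZH2#1. Log2 values of the 10 genes, EZH2 and the pathway genes named by rule that changed sign follow, and the cause was not tested. With shEZH2#1, SHC1 was 0.024 under RLE scaling and by DESeq2, 0.040 without the abundant unnamed genes and -0.10 to 0.075 with a library left out, and ERBB3 was 0.012 and ADAM15 -0.18 with the offset (0.010 and -0.18 with the replicate block as well). Leaving out a library, SPRY2 was -0.30 to 0.30 and HBEGF -0.081 to 0.33. With shEZH2#3, EGFR was 0.043, STUB1 -0.23 and HRAS -0.34 with the offset, with or without the replicate block. Under upper quartile scaling DUSP4 was -0.0044 and SPRY2 -0.026 with shEZH2#3, and 0.13 and 0.10 between hairpins. Between hairpins the offset gave EREG -0.26, DUSP4 0.13 and EZH2 -0.17 (-0.27, 0.13 and -0.18 with the replicate block), DUSP4 was 0.010 without the abundant unnamed genes, and with a library left out EREG was -0.18 to 0.16, DUSP4 -0.078 to 0.012, SPRY2 -0.42 to 0.14 and EZH2 -0.076 to 0.21. Low counts of AREG, HBEGF, DUSP6, SPRY2 and SPRY4 limit what these libraries can show.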
